A study of Mus musculus with 58 samples.

Results

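Bivalent promoters carry the repressive histone mark H3K27me3 and the permissive mark H3K4me3 at the same time. In hematopoietic stem cells (HSCs) of old male mice under lifelong caloric restriction (CR), 1331 of the 31552 promoters with a deposited signal (4.22%) had an H3K27me3 signal of at least 2 and an H3K4me3 signal of at least 10 in both ChIP-seq replicates. The members were chosen by these signals, so the signals of these promoters are a description and were not tested. The 1331 promoters lay at 1249 distinct transcription start sites (TSSs) of 1143 genes. All promoters in the tables met the rule for 900 of these genes, and 243 genes had at least 1 further promoter outside the rule, so their RNA may come from either. Of the other promoters, 2263 passed only the H3K27me3 threshold, 14100 only the H3K4me3 threshold and 13096 neither, and for 762 the replicates lay on different sides of a threshold. Those 3 classes are called H3K27me3 only, H3K4me3 only and neither.

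The HSCs came from the bone marrow of wild-type male C57BL/6 mice and were sorted as LSK cells (no lineage markers, with Sca-1 and c-Kit) that carried CD150 but neither CD34 nor Flk2. Old mice of 24 to 26 months were fed ad libitum (OAL), kept on lifelong 40% CR (OCR) or kept on lifelong CR and then refed for 4 weeks (OCRRF), with 4, 4 and 2 RNA-seq libraries. Mice of 3 to 4 months were fed ad libitum (YAL), kept on short-term CR of 20% for the first week and 40% for the next 3 weeks (YCR) or refed for 4 weeks after it (YCRRF), with 4 RNA-seq libraries each. The histone marks came from 2 OCR libraries per mark, each from 10000 HSCs, and the marks of other groups were not analysed here. A promoter called bivalent in OCR HSCs therefore need not have been so in the other groups, and a population signal does not show that both marks lay on the same chromosome copy. For most groups the study gives the number of RNA-seq libraries as a number of mice, but the labels tie no library to an animal, so p-values measure the spread between libraries.

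H3K27me3 is laid down by Polycomb repressive complex 2, is read by Polycomb repressive complex 1 and keeps genes of other cell fates silent. H3K4me3 is laid down by the COMPASS family of methyltransferases, mostly at CpG-rich promoters, and marks promoters that are active or ready to be activated. Bivalent promoters were first described at developmental regulators in embryonic stem cells, and in HSCs they are known at regulators of blood lineages that are switched on or off as cells differentiate.

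The sequences of 8 bivalent promoters are shown, whose genes are named in the results. Dlx2, a homeobox factor of forebrain and jaw development, had one of the strongest H3K27me3 signals (chr2:71546755-71547004, minus strand). Bmi1, a core subunit of Polycomb repressive complex 1, was among the most highly expressed members (chr2:18676768-18677017, plus strand). The ligand gene Bmp4 (chr14:46390670-46390919, minus strand), the receptor gene Bmpr1a (chr14:34502547-34502796, minus strand), the transcriptional repressor gene Gfi1 (chr5:107724344-107724593, minus strand) and the eye development gene Mab21l2 (chr3:86548284-86548533, minus strand) had less RNA in OCR than in OAL HSCs. Runx3, a transcription factor gene of blood lineages (chr4:135152295-135152544, plus strand), and Arhgap19, a gene of a GTPase-activating protein (chr19:41802085-41802334, minus strand), had more. Each run holds the 250 bases before the TSS on the gene's strand, read from RefSeq promoters on GRCm38.p6 (mm10), with the C and G of each CpG in capitals.
Dlx2: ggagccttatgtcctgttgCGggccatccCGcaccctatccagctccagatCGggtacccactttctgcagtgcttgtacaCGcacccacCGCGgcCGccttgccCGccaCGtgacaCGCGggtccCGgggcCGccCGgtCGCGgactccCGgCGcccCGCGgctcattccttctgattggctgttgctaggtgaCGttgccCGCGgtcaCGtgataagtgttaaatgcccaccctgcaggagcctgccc
Bmi1: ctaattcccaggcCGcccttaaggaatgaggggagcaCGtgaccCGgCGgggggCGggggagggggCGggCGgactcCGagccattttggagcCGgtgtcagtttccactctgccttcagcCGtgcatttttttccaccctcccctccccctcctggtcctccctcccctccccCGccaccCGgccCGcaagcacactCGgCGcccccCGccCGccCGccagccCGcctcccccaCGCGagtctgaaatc
Bmp4: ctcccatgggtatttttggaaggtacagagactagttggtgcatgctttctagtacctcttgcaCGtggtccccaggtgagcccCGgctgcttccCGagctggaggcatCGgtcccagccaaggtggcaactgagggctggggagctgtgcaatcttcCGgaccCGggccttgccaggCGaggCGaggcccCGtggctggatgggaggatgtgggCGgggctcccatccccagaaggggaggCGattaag
Bmpr1a: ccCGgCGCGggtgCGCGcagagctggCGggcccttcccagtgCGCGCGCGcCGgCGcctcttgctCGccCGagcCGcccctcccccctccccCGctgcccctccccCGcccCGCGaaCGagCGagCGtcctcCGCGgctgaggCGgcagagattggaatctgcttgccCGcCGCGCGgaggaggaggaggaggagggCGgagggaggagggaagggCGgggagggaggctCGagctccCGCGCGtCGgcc
Gfi1: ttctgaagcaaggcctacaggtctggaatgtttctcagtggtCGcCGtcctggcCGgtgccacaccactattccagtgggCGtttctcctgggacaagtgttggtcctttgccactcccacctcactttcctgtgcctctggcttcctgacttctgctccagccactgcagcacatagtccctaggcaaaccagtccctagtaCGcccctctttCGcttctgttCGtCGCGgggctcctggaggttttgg
Mab21l2: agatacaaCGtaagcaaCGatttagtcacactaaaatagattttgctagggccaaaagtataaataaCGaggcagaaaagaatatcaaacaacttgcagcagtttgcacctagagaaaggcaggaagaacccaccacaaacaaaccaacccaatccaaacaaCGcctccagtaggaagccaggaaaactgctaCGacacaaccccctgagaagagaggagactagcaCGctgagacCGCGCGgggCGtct
Runx3: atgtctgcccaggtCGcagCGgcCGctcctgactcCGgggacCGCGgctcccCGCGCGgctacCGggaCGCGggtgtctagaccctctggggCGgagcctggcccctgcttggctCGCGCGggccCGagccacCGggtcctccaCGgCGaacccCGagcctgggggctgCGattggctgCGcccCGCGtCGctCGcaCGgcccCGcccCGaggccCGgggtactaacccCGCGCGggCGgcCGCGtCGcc
Arhgap19: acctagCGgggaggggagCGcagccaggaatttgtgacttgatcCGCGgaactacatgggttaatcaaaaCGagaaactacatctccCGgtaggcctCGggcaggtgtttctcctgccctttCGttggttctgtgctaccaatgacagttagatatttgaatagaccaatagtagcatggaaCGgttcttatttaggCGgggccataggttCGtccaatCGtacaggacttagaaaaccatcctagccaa

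These upstream runs held between 9 CpGs (Gfi1) and 38 CpGs (Runx3), with 10 in Mab21l2, 11 in Bmp4, 12 in Arhgap19, 21 in Bmi1, 24 in Dlx2 and 36 in Bmpr1a. CpG density therefore differed widely among promoters that carried both marks. RefSeq promoters of 300 bases (250 before and 50 after the TSS) were matched for 864 of the 1249 bivalent TSSs (69.2%) and for 21597 of all 30009 TSSs. In these windows the bivalent promoters had a median GC content of 65.3%, against 59.3% for H3K27me3 only, 62.0% for H3K4me3 only and 48% for neither. Their median number of CpGs was 23, against 14, 22 and 3. An observed to expected CpG ratio above 0.6 was found in 74.4% of bivalent promoters, 44.5% of H3K27me3 only, 79.9% of H3K4me3 only and 6.63% of promoters with neither mark. The bivalent promoters thus lay near the H3K4me3 only class in CpG content.

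Short motifs were searched as exact letters in the same windows, on both strands except where stated. GGGCGG, the core of the Sp1 site, can overlap CpGs counted above. It was in 71.3% of bivalent, 69.3% of H3K4me3 only and 46.0% of all promoters. GAGGAAGT, the core bound by PU.1, was in 0.926% of bivalent promoters, 2.95% of H3K4me3 only promoters and 3.16% of all promoters. GATAAG, the GATA factor site, was in 3.82% and 6.80% of bivalent and all promoters, CCAAT in 34.5% and 38.3%, and TATAAA on the gene's strand in 5.79% and 8.12%. CACGTG, the E-box of Myc and related factors, was in 8.45% and 8.00%. These matches describe the letters and do not show binding.

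The median H3K27me3 signal of the bivalent promoters was 4.36 in replicate 1 and 4.19 in replicate 2, and their median H3K4me3 signal was 16.3 and 15.4. The H3K4me3 signals were lower than those of H3K4me3 only promoters, whose medians were 30.6 and 29.3, and the H3K27me3 signals were close to those of H3K27me3 only promoters, at 4.46 and 4.28. Among the 1331 promoters, Spearman's rho between replicates was 0.957 for H3K27me3 and 0.935 for H3K4me3, and rho between the marks was -0.257, across promoters that share libraries and CpG content. Epha5 lay just inside the H3K27me3 threshold, with signals of 2.25 and 2.01, and Faah just outside, with 2.33 and 1.996. Adgrb2 lay just inside the H3K4me3 threshold, with 10.01 and 11.8, and Pcsk1 just outside, with 12.3 and 9.98. Within 10% of a threshold lay 210 bivalent promoters above it and 267 promoters below it.

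The strongest H3K27me3 signals belonged to Rn45s (165 and 149.8), Mir101c (40.7 and 38.3), Sfi1 (19.5 and 19.9) and Mir6546 (10.7 and 9.34), and the strongest H3K4me3 signals to Pisd-ps3 (487 and 423), Mir101c (91.0 and 99.9), Rn45s (86.1 and 77.7) and Sfi1 (65.5 and 65.2). Rn45s is the precursor of ribosomal RNA, a repeated gene, so these values can be set by reads from several copies. Next in H3K27me3 came regulators of body plan and organ formation. Pax3, a factor of neural crest and muscle, had H3K27me3 signals of 8.93 and 9.13, and among those that followed were Pitx1 (8.75 and 8.56), Osr2 (8.67 and 8.46) and Dlx2 (8.80 and 8.31). Next in H3K4me3 came the magnesium transporter gene Cnnm2 (48.02 and 46.9), the orphan nuclear receptor gene Nr6a1 (43.4 and 44.5), the Integrator subunit gene Ints8 (41.9 and 39.5), Ctif (41.2 and 36.7), 6530402F18Rik (37.2 and 36.8) and Magi1 (36.5 and 33.7).

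**Figure D1:**
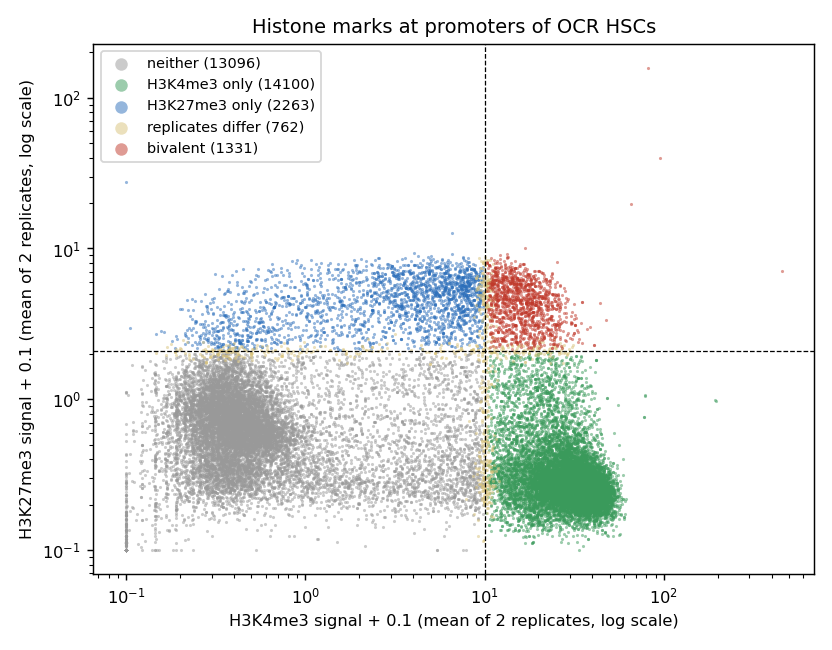
Each point is 1 of 31552 promoters, with its mean H3K4me3 signal on the x axis and its mean H3K27me3 signal on the y axis (2 OCR replicates, 0.1 added, log scales), coloured by class. The 1331 bivalent promoters in the upper right, past the dashed thresholds, include the promoters of repeat-like genes such as Rn45s and Pisd-ps3 far from the others.

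Most bivalent genes belonged to none of the gene classes examined, but many classes of developmental regulators had a high share of bivalent members. Over all 25127 genes of the tables, 4.55% had a bivalent promoter, and this share was exceeded in 21 of 24 gene classes, with no test made because the marks chose the members. Among transcription factors, 16 of 45 bHLH developmental factors were bivalent, with Neurog2 and Atoh1 as examples, along with 8 of 23 Pax, Gata, Zic and Gli factors (Pax3, Pax6, Zic2), 6 of 19 Sox factors (Sox9, Sox11, Sox18), 5 of 17 T-box factors (Tbx15, Eomes), 12 of 44 forkhead factors (Foxc2, Foxb2) and 32 of 133 homeobox factors outside the Hox clusters (Pitx1, Dlx2). Only 4 of 39 Hox cluster genes were bivalent, Hoxc4 and Hoxc9 among them, and 18 of them had H3K27me3 alone. Of the homeobox factors outside the clusters, 68 had H3K27me3 alone. So had 15 bHLH, 12 Pax, Gata, Zic and Gli, 6 Sox, 6 T-box and 10 forkhead factors. Over all genes, 1594 had H3K27me3 alone, at each of their promoters. A high share in these classes was therefore not particular to bivalent promoters.

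Classes of signalling and membrane proteins varied in their share. Axon guidance ligands and receptors (ephrins, semaphorins, slits, netrins and their receptors) were bivalent in 25 of 70 cases, growth factors and receptor tyrosine kinases in 24 of 80, Wnt pathway genes in 13 of 53 and genes of the BMP, activin and TGF-beta pathway in 13 of 59. Ion channels were bivalent in 39 of 242 cases, cadherins and protocadherins in 16 of 102, G protein-coupled receptors in 19 of 219 and solute carriers in 26 of 388. In the order given, the genes of these classes with H3K27me3 alone numbered 10, 13, 22, 11, 73, 15, 49 and 40. Of 82 genes of cytosolic ribosomal proteins none was bivalent, and of 1464 olfactory and vomeronasal receptor genes 1 was. Of 19 genes of H3K4 methyltransferases and demethylases none was bivalent, and of 36 Polycomb and H3K27 demethylase genes Bmi1 and Epop were.

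Regulators of blood lineages were bivalent in 12 of 57 cases, and 3 had H3K27me3 alone. The bivalent regulators included Cebpa, Gfi1, Egr2, Egr3 and Nfil3, which act in myeloid and other blood cells, the B cell factor Ebf1, the lymphoid factors Bcl11b, Lef1, Tbx21 and Eomes, and Runx3. Among their stronger H3K27me3 signals were those of Egr3 (7.32 and 6.63), Egr2 (6.08 and 6.73) and Lef1 (6.25 and 6.46), and the weakest was that of Nfil3 (2.04 and 2.11). Of 10 genes of CDK inhibitors and D cyclins, Cdkn2b and Cdkn2c were bivalent. Bmp4, with H3K27me3 signals of 2.79 and 2.71, and Bmpr1a, with 2.61 and 3.40, belonged to the bivalent promoters. Kdr, a receptor of vascular endothelial growth factor, lay just below the H3K27me3 threshold at 1.67 and 1.87.

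**Figure D2:**
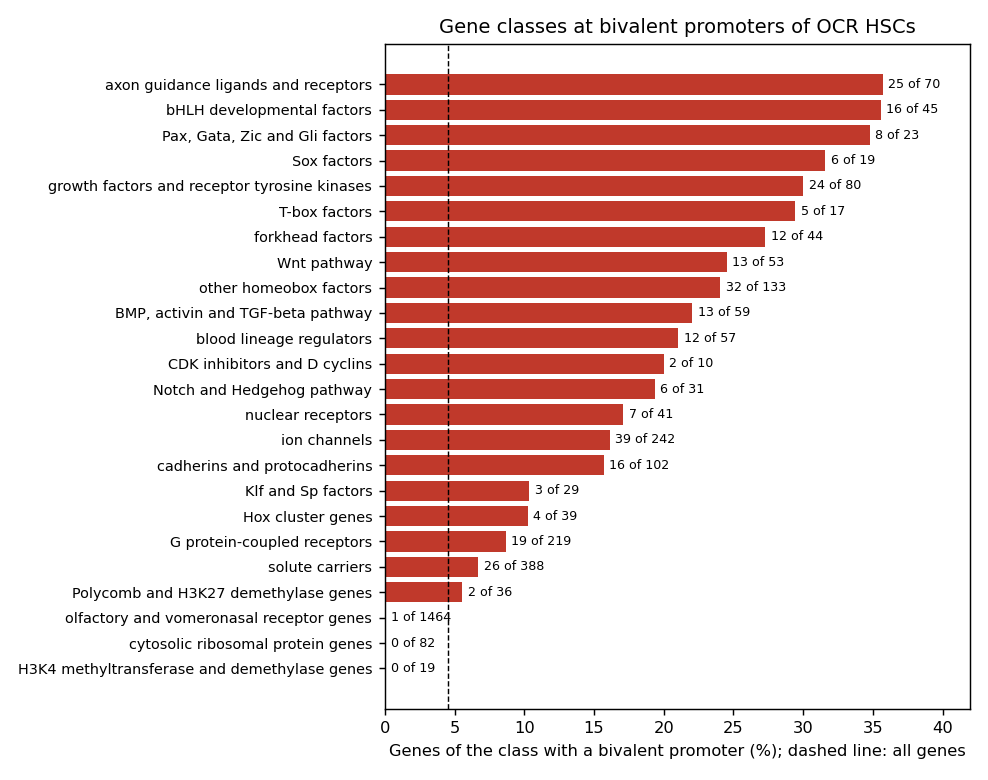
Bars give the percentage of genes of each class with a bivalent promoter in OCR HSCs, with counts beside them, and the dashed line is the share over all genes, 4.55%. Axon guidance genes (25 of 70) and bHLH factors (16 of 45) lie at the top, and ribosomal protein genes (0 of 82) at 0.

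RNA from genes with bivalent promoters was low. Of the 1143 genes, 1129 were matched to the RNA-seq count tables, 5 of them through an older symbol. Their median level in OCR HSCs was 1.69 CPM (counts scaled by library size), against 0.692 CPM for genes of the H3K27me3 only class, 0.395 CPM for neither and 47.1 CPM for H3K4me3 only. Per kilobase of exon the medians were 0.278, 0.208, 0.211 and 10.1 RPKM in the same order of bivalent, H3K27me3 only, neither and H3K4me3 only. Among the bivalent genes, 760 of 1129 (67.3%) reached a mean of 1 CPM in OCR HSCs and 209 (18.5%) reached 5 CPM. Set against reads on 1733 olfactory and vomeronasal receptor genes, which HSCs are not known to use and which serve here as a measure of background, 506 of 1126 bivalent genes with a known exon length (44.9%) lay above the receptor genes' 95th percentile of 0.304 RPKM. This share was 23.6% for H3K27me3 only genes, 33.7% for genes with neither mark and 98.0% for H3K4me3 only genes.

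Within the bivalent genes, RNA was lower where H3K27me3 was higher and higher where H3K4me3 was higher, across genes that share libraries and differ in promoter composition. Of the genes in the low, middle and high tercile of H3K27me3 signal, 82.4%, 70.6% and 48.9% reached 1 CPM in OCR HSCs. Along H3K4me3, the shares from the low to the high tercile were 53.6%, 68.4% and 80.1%. Spearman's rho with RPKM over 1126 genes was -0.421 for H3K27me3 and 0.293 for H3K4me3.

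**Figure D3:**
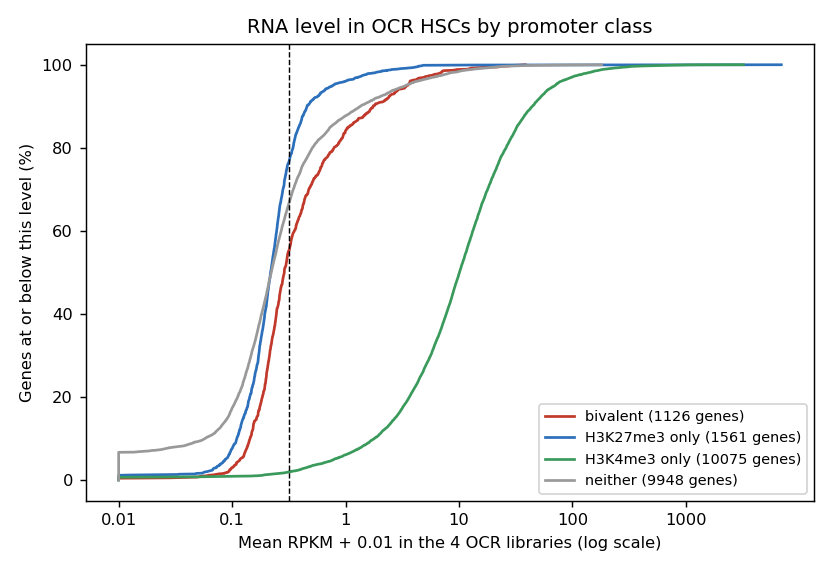
The curves give the percentage of genes (y axis) at or below each mean RPKM of the 4 OCR libraries (x axis, log scale, 0.01 added) for the promoter classes, and the dashed line marks the receptor genes' 95th percentile of 0.304 RPKM. The bivalent curve (median 0.278 RPKM) lies near those of H3K27me3 only and neither and far to the left of H3K4me3 only (median 10.1 RPKM).

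A few members were well expressed. Snx22, a sorting nexin, had 42.1, 40.9, 34.9 and 35.4 RPKM in the 4 OCR libraries, the highest level per length of all bivalent genes. Clstn1, a calsyntenin of vesicle transport, had 24.5, 30.5, 27.9 and 29.6 RPKM, and Bmi1 21.6, 23.0, 20.4 and 24.4 RPKM. Each of these 3 genes had a single promoter in the tables. In contrast, Ap1b1 (mean 33.8 RPKM), Adcy7 (24.2), Grb10 (22.7), Tpm1 (16.8), Nfatc1 (14.7) and Ptprs (12.8) also had promoters outside the rule. Among the lineage regulators, means in OCR HSCs ran from 0.543 CPM for Cebpa to 35.8 CPM for Runx3, with 0.591 for Tbx21, 0.632 for Egr3, 0.740 for Eomes, 2.08 for Lef1 and 13.7 for Gfi1, and Cdkn2c lay at 18.1 CPM against 0.131 CPM for Cdkn2b. Ptch1, the Hedgehog receptor, reached 48.6 CPM with H3K27me3 signals of 6.95 and 5.92.

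The libraries held 11102898 to 36579392 counts. All 10 HSC marker genes (among them Kit, Slamf1, Procr and Hlf) reached 1 CPM in each group, with sums of 3338 to 4885 CPM per library. Granulocyte and monocyte markers summed to 548 to 1238 CPM in YAL, 507 to 852 CPM in YCR and 892 to 2207 CPM in YCRRF. In old libraries this sum was 612.5 to 845 CPM. B and plasma cell markers summed to 79.7 to 163 CPM in YAL, 71.6 to 585 CPM in YCR and 40.5 to 73.5 CPM in YCRRF. In old libraries they summed to 40.1 to 89.0 CPM. The part of such cells in the calls was not tested. The receptor gene background differed between groups and libraries, at 529 to 751 CPM in OAL, 560.4 to 1256 CPM in OCR, 1160.1 and 1484 CPM in OCRRF and, among young libraries, 66.5 to 473 CPM. The median level of the bivalent genes moved with it. It was 1.31 to 1.67 CPM in OAL, 1.57, 1.28, 2.27 and 1.57 CPM in the 4 OCR libraries, with the highest value in replicate 3, which also had the highest receptor background, 2.09 and 2.54 CPM in OCRRF, and between 0.197 and 0.916 CPM in young HSCs. Levels of the bivalent genes as a whole were therefore not compared between groups, and the part of the background in each call was not tested apart from 2 alternatives chosen after seeing the data, namely a minimum mean level of 5 CPM and a covariate for the receptor background. In these bulk samples, fewer cells of a type and less RNA per cell cannot be told apart.

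Under lifelong CR the bivalent genes were called about as often as all genes, but more often where the mean level was 5 CPM or more. Of 1044 bivalent genes tested with edgeR's quasi-likelihood test for OCR versus OAL (adjusted p below 0.05 and fold above 1.2), 16 were higher and 39 were lower in OCR HSCs. The share called was 5.27%, against a background of 5.57% over all 27150 genes tested, of which 2.54% were higher and 3.03% lower. The median log2 fold change was 0.09 for bivalent genes and 0.02 for all genes, and that of bivalent genes was -0.08 without OCR replicate 3, 0.18 without OCR replicate 2, -0.12 with the background covariate and -0.11 above a mean of 5 CPM, so it had no stable sign. By promoter class, 16 of 1169 H3K27me3 only genes, 1006 of 9958 H3K4me3 only genes and 182 of 5431 genes with neither mark were called. Where the mean level was 5 CPM or more, 14 bivalent genes were higher and 29 lower of 220 tested (19.5%, against 13.1% of all genes). Of all 12400 genes tested at that level, 1626 were called and 896 of these were higher. Leaving out OAL replicate 4 lowered the count from 55 to 34 genes (3.21%, against 3.92% of all genes). With H3K27me3 of at least 3, 31 of 784 genes were called (3.95%). With H3K4me3 of at least 20, 18 of 219 were (8.22%), both against 5.57% of all genes. For 91 bivalent genes (8.72%) the OCR and OAL libraries did not overlap, against 10.2% of all genes.

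In BMP signalling, a ligand gene and a receptor gene had less RNA under lifelong CR. BMPs bind paired receptors and act through SMAD proteins. Of the 12 bivalent BMP, activin and TGF-beta pathway genes tested, Bmp4 and Bmpr1a fell and none rose, with a median log2 fold change of 0.16 over the 12. The ligand gene Bmp4 had 27.4, 20.4, 27.9 and 33.7 CPM in OAL and 7.43, 8.75, 13.8 and 15.0 CPM in OCR. Each OCR library was below each OAL library (log2 fold change -1.28, SE 0.17, edgeR adjusted p = 9.71e-06). The type I receptor gene Bmpr1a had 46.0, 42.1, 42.5 and 28.3 CPM in OAL and 22.9, 24.1, 22.4 and 23.9 CPM in OCR. These groups did not overlap either, though OAL replicate 4 lay closer to the OCR libraries than to the other OAL libraries (log2 fold change -0.76, SE 0.12, edgeR adjusted p = 6.58e-05). Both calls held with each library left out in turn.

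Among transcription factors, Sox18 (1 of 5 Sox factors tested), Gfi1, Insm1 and Runx3 were among those called, while none of 21 homeobox, 6 forkhead, 11 bHLH, 5 T-box and 4 Hox cluster genes tested was called by edgeR. Sox18, a factor of blood and lymph vessel endothelium, had 15.7, 15.7, 22.7 and 29.2 CPM in OAL and 6.59, 7.35, 11.8 and 12.6 CPM in OCR, without overlap (log2 fold change -1.11, SE 0.19, edgeR adjusted p = 0.000287). The summed level of 9 endothelial and stromal markers was 129.6 to 159.7 CPM in OAL and 110.3 to 138.2 CPM in OCR, with 7 of the 9 at 1 CPM or more in both groups. Most of it came from Pecam1 (means of 78.7 and 66.1 CPM) and Emcn (31.6 and 17.7 CPM), while Cdh5 lay at 0.729 and 0.979 CPM, and the part of these cells in Sox18 was not tested. Gfi1, a repressor that restrains HSC proliferation, had 18.0, 22.4, 32.4 and 29.9 CPM in OAL and 14.2, 8.75, 8.35 and 23.3 CPM in OCR. The groups overlapped in the fourth OCR library (log2 fold change -0.90, SE 0.22, edgeR adjusted p = 0.00983). The call was lost without OAL replicate 3 or 4, without OCR replicate 2 or 3, with DESeq2 and with the background as a covariate. Insm1, a factor of neuroendocrine cells, was near 1 CPM, with 1.70, 2.35, 1.98 and 1.48 CPM in OAL and 0.736, 0.187, 0.935 and 0.513 CPM in OCR (log2 fold change -1.65, SE 0.38, edgeR adjusted p = 0.00578, not called by DESeq2).

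Runx3 went the other way. Its levels were 22.4, 20.8, 19.9 and 21.9 CPM in OAL and 41.6, 34.2, 36.1 and 31.3 CPM in OCR. All OCR libraries were above all OAL libraries (log2 fold change 0.76, SE 0.11, edgeR adjusted p = 1.38e-05), a call that held without any 1 library. Runx3 had 2 promoters in the tables, of which 1 met the rule, and the counts do not show which was used. Of the 12 bivalent lineage regulators tested, Runx3 rose and Gfi1 fell, with a median log2 fold change of 0.02. The 8 markers of T and NK cells, in which Runx3 is active, summed to 62.1 to 74.1 CPM in OAL and 45.9 to 58.7 CPM in OCR. The mean of 1 of them, Klrb1c, was lower in OCR (55.8 CPM in OAL and 28.8 CPM in OCR), and the means of the other 7 were higher, among them Nkg7 (11.7 and 20.5 CPM) and Cd3e (0.701 and 0.842 CPM). Their part in Runx3 was not tested.

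Other signalling genes were called in both directions. Socs2, a feedback inhibitor of growth hormone and cytokine signalling, had 16.3, 10.3, 7.94 and 12.9 CPM in OAL and 2.95, 4.86, 5.08 and 5.42 CPM in OCR. The groups did not overlap (log2 fold change -1.37, SE 0.20, edgeR adjusted p = 2.78e-05). Unc5a, a netrin receptor, had 36.0, 35.9, 36.6 and 34.9 CPM in OAL and 18.3, 19.8, 20.3 and 25.6 CPM in OCR (log2 fold change -0.76, SE 0.11, edgeR adjusted p = 1.67e-05). Nrp2, a co-receptor for semaphorins and vascular growth factors, had 7.50, 7.30, 8.27 and 7.22 CPM in OAL and 2.68, 3.15, 5.21 and 4.39 CPM in OCR (log2 fold change -0.97, SE 0.19, edgeR adjusted p = 0.00151). Neither gene overlapped between the groups, and with Sema6d (log2 fold change -0.85, SE 0.19) Unc5a made 2 of 25 axon guidance genes called. Fgf3, a growth factor and, with Nrp2, 1 of 2 called among 24 growth factor and receptor tyrosine kinase genes, rose from 3.95, 4.89, 5.29 and 3.82 CPM in OAL to 13.2, 6.48, 5.61 and 8.79 CPM in OCR (log2 fold change 0.93, SE 0.21, edgeR adjusted p = 0.00574). Its groups were apart by a narrow gap and the call was lost without OCR replicate 1.

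Further genes that fell under lifelong CR were of mixed function. Kcnb2, a voltage-gated potassium channel and the 1 ion channel called of 38 tested, had 9.99, 17.0, 14.9 and 13.1 CPM in OAL and 3.92, 4.20, 7.38 and 6.09 CPM in OCR (log2 fold change -1.34, SE 0.19). Mab21l2 had 12.4, 23.0, 16.7 and 19.2 CPM in OAL and 6.83, 7.38, 7.95 and 7.76 CPM in OCR (log2 fold change -1.24, SE 0.16). In both genes each OCR library was below each OAL library. Bmi1 fell least, from 115, 116, 106 and 113 CPM in OAL to 85.8, 91.2, 81.2 and 96.8 CPM in OCR, again without overlap (log2 fold change -0.34, SE 0.08, edgeR adjusted p = 0.00876). The others among the 15 largest decreases were 1110032F04Rik (log2 fold change -1.59), the carbonic anhydrase-related gene Car11 (-1.45), Rassf10 (-1.15), the ectonucleotidase gene Entpd2 (-1.05), the neurotrophin gene Ntf3 (-0.99), the kinase gene Ripk4 (-0.96) and the lysyl oxidase-like gene Loxl1 (-0.89). Of these, the Rassf10 call was lost in 2 and the Loxl1 call in 2 of 8 fits without 1 library, and the Ntf3 call in 7. Among solute carriers (26 tested), G protein-coupled receptors (18), cadherins (16) and Wnt pathway genes (11), edgeR called none.

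Genes that rose under lifelong CR were of mixed function too. Arhgap19, which acts in cytokinesis, had 6.80, 5.23, 8.37 and 4.94 CPM in OAL and 18.6, 22.9, 15.0 and 18.7 CPM in OCR. The groups did not overlap (log2 fold change 1.57, SE 0.16, edgeR adjusted p = 9.45e-08). Sapcd2, a regulator of spindle orientation, had 3.10, 2.75, 2.91 and 3.27 CPM in OAL and 7.06, 9.59, 7.31 and 7.28 CPM in OCR (log2 fold change 1.38, SE 0.18, edgeR adjusted p = 3.80e-06). Hist1h1b, the linker histone gene named H1f5 in the promoter tables, had 0.486, 0.938, 1.14 and 0.899 CPM in OAL and 3.78, 3.11, 2.64 and 1.99 CPM in OCR (log2 fold change 1.74, SE 0.30, edgeR adjusted p = 0.000281). Both genes were apart between the groups in every library. Lhfpl2, a membrane protein gene, had 6.22, 11.9, 10.5 and 9.34 CPM in OAL and 15.3, 20.1, 16.8 and 18.4 CPM in OCR (log2 fold change 0.90, SE 0.16). Mthfd2, an enzyme of mitochondrial folate metabolism, had 5.16, 6.87, 4.12 and 3.72 CPM in OAL and 7.40, 10.9, 7.61 and 7.73 CPM in OCR (log2 fold change 0.76, SE 0.19, edgeR adjusted p = 0.0113), a call lost without OAL replicate 3 or 4 or OCR replicate 2. The remaining increases were Aif1l (log2 fold change 1.21), Chsy3 (1.06), Mex3b (1.02), Emilin2 (0.74), Rps6ka2 (0.69), Crybg1 (0.62), Arvcf (0.48), Nsg1 (0.44) and Grb10 (0.35). Among these the calls of Mex3b, Rps6ka2 and Nsg1 held in 2 or fewer of 8 fits without 1 library, those of Chsy3 and Emilin2 in 4, and those of Crybg1, Arvcf and Grb10 in 5 or 6.

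**Figure D4:**
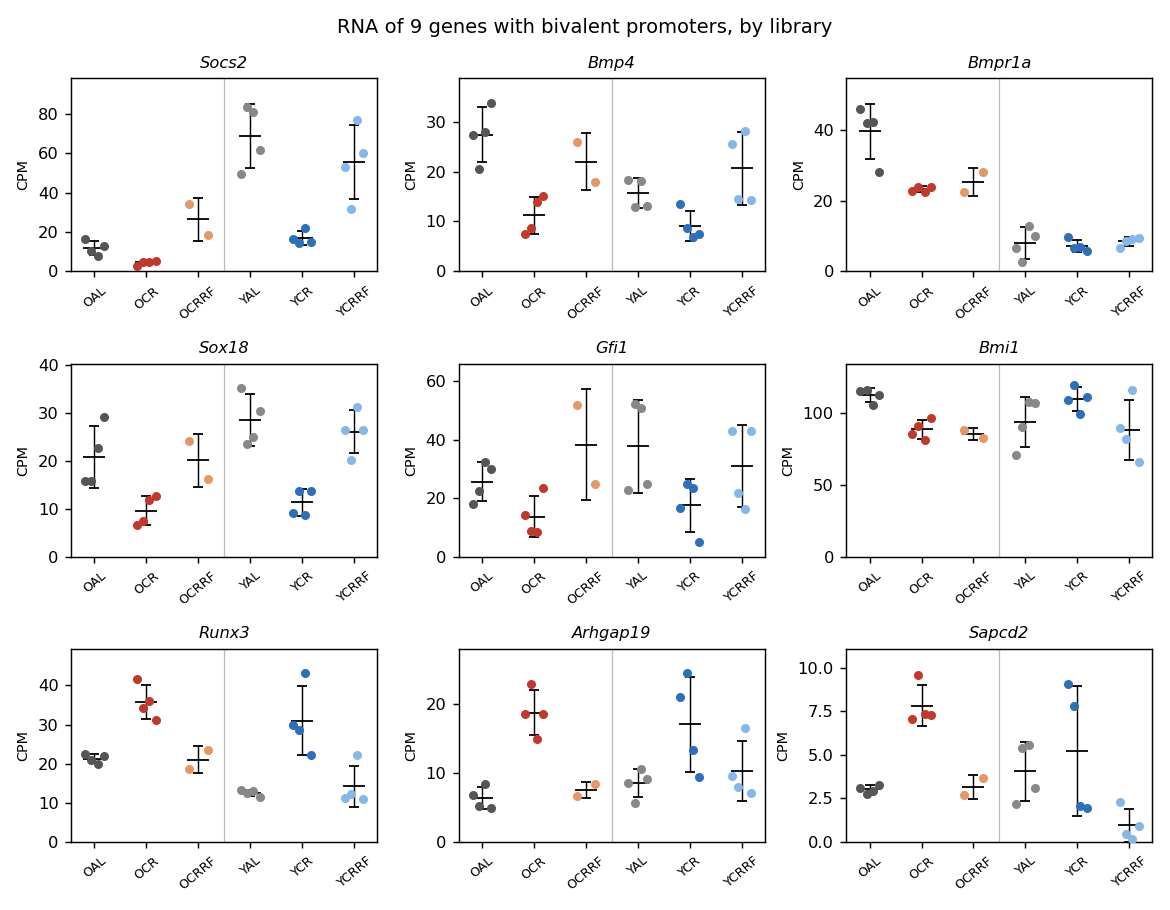
Points are the CPM of each library (y axis, from 0) in the 6 diet groups (x axis) for 9 genes with bivalent promoters, scaled among old and among young libraries separately, and bars give the mean and SD. Socs2, Bmp4, Bmpr1a, Sox18 and Bmi1 are lower and Runx3, Arhgap19 and Sapcd2 higher in each OCR library than in each OAL library, while Gfi1 overlaps, and Socs2 is near 5 CPM in OCR against 18.8 and 34.1 CPM in OCRRF.

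Refeeding after lifelong CR was compared on the same OCR libraries, so the values of both comparisons share their OCR side and are not independent. Of 1098 bivalent genes tested for OCRRF versus OCR, edgeR called 19 higher and 13 lower after refeeding (2.91%, against a background of 3.41% of all 32577 genes, with 0.694% higher and 2.71% lower). The median log2 fold change was 0.39 for bivalent genes and 0.11 for all genes. With TMM factors from genes at 5 CPM these medians were 0.51 and 0.24, above a mean level of 5 CPM 0.16 and -0.0011, and with the background covariate -0.04 and -0.01, so changes are best read relative to the median of all genes. This count depended on the libraries more than that of OCR versus OAL. It was 10 without OCRRF replicate 1 (0.903%, against 0.970% of all genes), 14 without OCRRF replicate 2 (1.26% and 1.48%) and 21 without OCR replicate 2 (1.92% and 2.02%). It was 132 (116 higher) without OCR replicate 3, the library with the highest receptor background of the OCR group (12.1%, against 8.81% of all genes). With the background as a covariate 5 genes were called (0.455%, against 0.589% of all genes), namely Socs2, which was higher, and Bcl6, Arhgap19, Lhfpl2 and Runx3, which were lower. Above a mean level of 5 CPM 13 were higher and 8 lower (9.13%, against 8.82% of all genes). DESeq2 called 29 higher and 23 lower (4.74%, against 7.05% of all genes). For 319 bivalent genes (29.1%) the groups did not overlap, against 27.9% of all genes.

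Socs2 moved most upon refeeding. It had 34.1 and 18.8 CPM in the OCRRF libraries, above each of the 4 OCR libraries given above (log2 fold change 2.51, SE 0.21, edgeR adjusted p = 3.38e-10), a call that held under each library left out. Gfi1 had 51.9 and 24.9 CPM in OCRRF (log2 fold change 1.47, SE 0.24, edgeR adjusted p = 9.86e-05). Both values lay above the highest OCR library, 23.3 CPM, but DESeq2 did not call the gene and the call was lost without OCRRF replicate 1. Bmp4 had 25.9 and 17.9 CPM in OCRRF (log2 fold change 0.94, SE 0.20, edgeR adjusted p = 0.00387). Sox18 had 24.0 and 16.2 CPM (log2 fold change 1.05, SE 0.21, edgeR adjusted p = 0.00112). Both were above all OCR libraries and both calls were lost without OCRRF replicate 1 and with the background as a covariate. The endothelial and stromal markers summed to 138.7 and 172 CPM in OCRRF, with 9 of 9 at 1 CPM or more, and their part was not tested. Kcnb2 had 10.7 and 12.6 CPM in OCRRF (log2 fold change 1.08, SE 0.22), and the call was lost without OCRRF replicate 2. Tgfb2, a TGF-beta ligand gene that was not called for OCR versus OAL, had 1.44, 0.872, 1.37 and 0.994 CPM in OCR and 3.06 and 3.69 CPM in OCRRF (log2 fold change 1.495, SE 0.35, edgeR adjusted p = 0.00775), a call lost without either OCRRF library.

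Other genes called higher after refeeding were Insm1 (log2 fold change 1.97), Sema3e (1.27), Cttnbp2 (1.125), Tmem108 (1.07), Etl4 (0.95), Trim36 (0.92), Antxr1 (0.89), the EGF receptor ligand gene Tgfa (0.88), Eya4 (0.82), Nhsl2 (0.75), Spon1 (0.72) and Palld (0.64), and of these Insm1 lay under 4 CPM in each library. Each of them was lost with the background as a covariate, and the calls of Cttnbp2, Tmem108, Antxr1, Tgfa, Eya4 and Alx1 held in 1 of 6 fits without 1 library. Palld was also called lower in OCR than in OAL (log2 fold change -0.55). Bmpr1a, Bmi1 and Unc5a, which were lower in OCR than in OAL, were not called after refeeding. Bmpr1a had 22.6 and 28.2 CPM in OCRRF (log2 fold change 0.09, SE 0.15, edgeR adjusted p = 0.798), Bmi1 88.4 and 82.6 CPM (log2 fold change -0.08, SE 0.12) and Unc5a 17.9 and 26.4 CPM (log2 fold change 0.04, SE 0.16). Their OCRRF values lay within or close to the range of OCR. Of 12 BMP, activin and TGF-beta pathway genes tested, 2 were higher, and of 30 homeobox genes outside the Hox clusters 1 was, Alx1 (log2 fold change 1.93, mean 0.697 CPM).

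Of the 13 genes called lower after refeeding, Bcl6 fell most. Bcl6, a transcriptional repressor of germinal centre B cells, had 7.89, 17.5, 25.8 and 24.2 CPM in OAL, 27.5, 17.7, 25.2 and 28.0 CPM in OCR and 8.67 and 8.94 CPM in OCRRF. It was not called for OCR versus OAL (log2 fold change 0.39, SE 0.21, edgeR adjusted p = 0.383), whereas it fell upon refeeding (log2 fold change -1.51, SE 0.19, edgeR adjusted p = 5.23e-07). Arhgap19 fell to 6.67 and 8.38 CPM (log2 fold change -1.35, SE 0.19, edgeR adjusted p = 6.09e-06), while Lhfpl2 fell to 8.35 and 8.58 CPM (log2 fold change -1.09, SE 0.18, edgeR adjusted p = 8.56e-05). Neither overlapped the OCR libraries, and both calls held under each library left out. Runx3 fell to 18.6 and 23.5 CPM (log2 fold change -0.80, SE 0.15, edgeR adjusted p = 0.000813), Sapcd2 to 2.67 and 3.66 CPM (log2 fold change -1.34, SE 0.25) and Mthfd2 to 2.96 and 4.93 CPM (log2 fold change -1.13, SE 0.25), all 3 below each OCR library and all 3 lost without OCRRF replicate 1. The rest were Fgf3 (log2 fold change -1.04), Aif1l (-0.99), Emilin2 (-0.93), Arvcf (-0.78), Grb10 (-0.59), Hspa2 (-0.55) and Casz1 (-0.51). The call of Aif1l held in 1, those of Fgf3, Emilin2, Hspa2 and Casz1 in 3 and those of Arvcf and Grb10 in 4 of 6 fits without 1 library.

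Short-term CR in young mice moved 3 bivalent genes. Of 647 genes tested for YCR versus YAL, edgeR called Runx3 and 6530402F18Rik higher and Socs2 lower (0.464%, against a background of 0.257% of all 18680 genes, with 0.0642% higher and 0.193% lower). At an unadjusted p below 0.05 there were 51 (7.88%, against 9.29% of all genes). Socs2 had 49.7, 83.5, 81.0 and 61.7 CPM in YAL and 16.5, 14.6, 22.0 and 15.1 CPM in YCR. The groups lay far apart (log2 fold change -2.01, SE 0.21, edgeR adjusted p = 0.00341), a call that held under each library left out. Runx3 had 13.3, 12.4, 12.9 and 11.5 CPM in YAL and 29.8, 28.7, 43.2 and 22.3 CPM in YCR (log2 fold change 1.32, SE 0.22, edgeR adjusted p = 0.0422). 6530402F18Rik had 4.59, 3.27, 4.26 and 4.53 CPM in YAL and 12.4, 12.5, 17.4 and 8.94 CPM in YCR (log2 fold change 1.63, SE 0.29, edgeR adjusted p = 0.0483). Both genes were higher in each YCR library than in each YAL library, but their adjusted p was close to the threshold. The call of Runx3 was kept in 1 and that of 6530402F18Rik in 0 of 8 fits without 1 library. With the background as a covariate neither was called, and 0 bivalent genes were higher and 2 lower (0.309%, against 0.193% of all genes). The T and NK cell markers summed to 24.1 to 40.7 CPM in YAL and 37.4 to 63.1 CPM in YCR, and their part in Runx3 was not tested. DESeq2 called 6 bivalent genes higher and 7 lower (2.01%, against 2.42% of all genes). Sox18 had a log2 fold change of -1.32 (SE 0.24) and missed the threshold (edgeR adjusted p = 0.0501), and Bmp4 (log2 fold change -0.77, SE 0.27) and Bmpr1a (-0.14, SE 0.43) were not called.

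After refeeding of young mice, edgeR called 0 of 718 bivalent genes for YCRRF versus YCR (background 0.0102% of 19535 genes). At an unadjusted p below 0.05 there were 42 (5.85%, against 7.27% of all genes), and DESeq2 called 7 higher and 4 lower (1.53%, against 1.37%). Socs2 had 53.0, 31.7, 76.9 and 60.4 CPM in YCRRF, above each YCR library (log2 fold change 1.70, SE 0.27, edgeR adjusted p = 0.103). Runx3 had 11.3, 12.3, 22.2 and 11.0 CPM in YCRRF, below each YCR library by a narrow margin in replicate 3 (log2 fold change -1.14, SE 0.30, edgeR adjusted p = 0.318). The difference between the responses of old and young HSCs to CR was tested as an interaction over OAL, OCR, YAL and YCR. Of 1052 bivalent genes edgeR called 0 (background 0.0424% of 28328 genes, with 0.0177% higher and 0.0247% lower). There were 100 at an unadjusted p below 0.05 (9.51%, against 8.93% of all genes), and DESeq2 called 1 higher and 5 lower (0.570%, against 0.642%). A difference between ages in the response of Bmp4 (-0.49, SE 0.37), Bmpr1a (-0.62, SE 0.44), Socs2 (0.66, SE 0.33) or Runx3 (-0.54, SE 0.24), each the old minus the young log2 fold change, was not detectable.

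Chromatin at bivalent promoters was open. In the consensus peaks of ATAC-seq, a measure of accessible DNA, 1154 of 1249 bivalent TSSs (92.4%) lay inside a peak, against 58.0% of H3K27me3 only, 94.6% of H3K4me3 only and 17.1% of TSSs with neither mark. The median level of these peaks over 4 OCR libraries was 16.1 CPM at bivalent TSSs, 6.06 CPM at H3K27me3 only and 29.0 CPM at H3K4me3 only. The peaks at bivalent TSSs were broad, with a median of 1346 bases against 898 and 1138. Of 1057 peaks at bivalent TSSs tested for OCRRF versus OCR with edgeR (adjusted p below 0.05, fold above 1.5 and mean log2 CPM above 1.5), 1 was called (0.0946%, against a background of 0.221% of all peaks). Of 14237 peaks at any TSS 0.105% were called, with 0.0879% at H3K27me3 only, 0.0605% at H3K4me3 only and 0.345% at TSSs with neither mark. The called bivalent peak lay at the TSS of Sstr2, a somatostatin receptor gene (chr11:113618623-113619774, mm10). It had 12.7, 14.1, 10.8 and 11.4 CPM in OCR and 6.31 and 8.87 CPM in OCRRF (log2 fold change -0.69, SE 0.16, edgeR adjusted p = 0.0296). It was not called without OCR replicate 1 or without OCR replicate 2. The count rose to 3 without OCRRF replicate 2.

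Few bivalent promoters had a peak of PU.1, a transcription factor of myeloid cells and HSCs encoded by Spi1. A peak within 1 kb of the TSS in both libraries of a group was found at 8 of 1249 bivalent TSSs in OAL, 8 in OCR and 5 in OCRRF, which is 0.641%, 0.641% and 0.4003%. Over all TSSs these shares were 1.83%, 2.80% and 1.36%, and at H3K4me3 only TSSs 3.49%, 5.30% and 2.57%. They were 0.138%, 0.184% and 0.138% at H3K27me3 only TSSs and 0.565%, 0.988% and 0.455% at TSSs with neither mark. The libraries within a group appear to differ in antibody, so a peak in both had to be found with each. All peaks numbered 3046 and 2900 in the OAL, 5464 and 3852 in the OCR and 2817 and 2262 in the OCRRF libraries. The shares are therefore best compared between promoter classes within a group. Within 200 bases, 2 bivalent TSSs had a peak in both OCR libraries. Of the 5 bivalent TSSs with a peak in all 6 libraries, those of Mir101c, Pisd-ps3 and Rn45s had the extreme histone signals given above, and the others were those of Edn1, an endothelin ligand gene, and Foxf2, a forkhead factor gene.

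**Figure D5:**
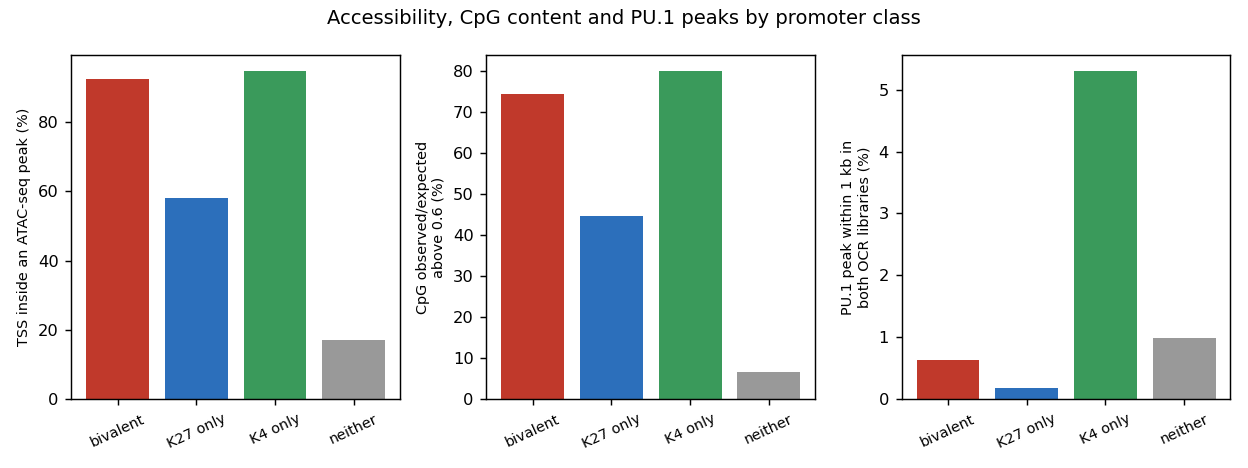
Bars from 0 give, for each promoter class, the percentage of TSSs inside an ATAC-seq peak, of promoters with a CpG observed to expected ratio above 0.6 and of TSSs with a PU.1 peak within 1 kb in both OCR libraries. Bivalent promoters lie close to H3K4me3 only in accessibility (92.4% and 94.6%) and CpG ratio (74.4% and 79.9%) and well below it in PU.1 peaks (0.641% and 5.30%).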

How the data were processed

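Values of RNA-seq and ATAC-seq and of ChIP-seq for histone marks and PU.1 were taken as deposited, without the reads. The deposited RNA-seq counts per gene were made by the authors with STAR on mm10 with GENCODE M22 and featureCounts, and the deposited ATAC-seq counts per consensus peak with BWA and MACS. Strand and multi-mapping settings are not given in the sources used here, so overlapping and antisense genes are uncertain. The deposited histone signal is the authors' mean per base over 2000 (H3K27me3) or 750 (H3K4me3) bases downstream of each TSS, scaled to 10000000 reads, and its depth per promoter is unknown. The study's methods name 1 kb to both sides of the TSS for H3K4me3, so the deposited signal used here covers another window. The authors' deposited PU.1 peaks give a score, a fold enrichment and the -log10 of p and q per peak, from MACS2 on each library. OAL libraries of ATAC-seq and histone marks and the knockdown libraries were not analysed here. Columns of no mapped sample numbered 0.

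Counts were filtered with filterByExpr, normalized with TMM and tested with the quasi-likelihood F test of edgeR 4.0.16 in R 4.3.3, each comparison on its own groups and the old minus young response on OAL, OCR, YAL and YCR together, with Benjamini-Hochberg adjustment over all genes or peaks. SEs are the absolute log2 fold change over the square root of F. RPKM are TMM-normalized CPM per kilobase of GENCODE M21 exons, and levels are CPM with TMM factors of all old or all young libraries, so a fold change need not equal their ratio. The RNA-seq comparisons of 2 groups were run on simulated counts with known changes. These counts held no uneven receptor background, so that check does not cover it. Alternatives were DESeq2 1.42.0, its size factors, TMM factors from genes at 5 CPM, no filter, a minimum of 10 counts per library, a block for the replicate number, other signal thresholds and each library left out, and, chosen after seeing the data, a mean of 5 CPM and the receptor background as a covariate. Named genes were all changed bivalent genes of a comparison up to 30, otherwise the 15 largest in each direction with a mean of 1 CPM, the 10 strongest by each mark and by RNA level, genes the study names and up to 4 examples of each class. Genes outside this rule were picked with their values known. Some items are not reported here. The bivalent set, the gene classes and the tests were chosen with earlier results of these data known.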

Additional observations from a re-analysis of the deposited data

Results flagged for a closer look

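Outlying libraries were looked for in 63 groups of 4 libraries. These covered genes whose values are given above, the Sstr2 peak, the receptor background and, for the bivalent genes, the median level and the number at 1 CPM. In 3 groups the highest or lowest library stood far from the others, and chance gives about 1 such group in 20. Runx3 had 22.2 CPM in YCRRF replicate 3, against 11.3, 12.3 and 11.0 CPM. Sapcd2 had 9.59 CPM in OCR replicate 2, against 7.06, 7.31 and 7.28 CPM, and Mthfd2 had 10.9 CPM in the same library, against 7.40, 7.61 and 7.73 CPM.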

How the results depend on the processing

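No gene called for OCR versus OAL, YCR versus YAL or OCRRF versus OCR changed direction in that comparison's refits. Of 866 refitted values of the genes called for OCR versus OAL, 719 stayed past the threshold and 147 did not, for YCR versus YAL 29 and 19 of 48, and for OCRRF versus OCR 314 and 121 of 435. When single libraries were omitted, the bivalent genes called numbered 34 to 64 for OCR versus OAL, 1 to 2 for YCR versus YAL, 10 to 132 for OCRRF versus OCR and 0 to 1 for the old minus young response, and 0 to 3 bivalent ATAC-seq peaks were called. DESeq2 called 13 genes for YCR versus YAL, 52 for OCRRF versus OCR, 11 for YCRRF versus YCR and 6 for the old minus young response. No filter on low counts gave 15 genes in the young CR comparison (1.34%, against 0.841% of all genes) and 12 for YCRRF versus YCR (1.07% and 0.617%). At least 10 counts in every library gave 6 for YCR versus YAL (2.11% and 0.685%). At a mean of 5 CPM there were 6 for YCR versus YAL (3.53% and 0.902%) and 21 for OCRRF versus OCR (9.13% and 8.82%). With the background covariate there were 5 for OCRRF versus OCR (0.455% and 0.589%) and 1 for the old minus young response (0.0951% and 0.0388%). H3K27me3 of at least 3 left 31 called genes (3.95%) for OCR versus OAL and 18 (2.17%) for OCRRF versus OCR. H3K4me3 of at least 20 left 18 (8.22%) and 9 (4.07%), on fewer members. The shares of all genes were 5.57% and 3.41%. The bivalent promoters themselves numbered 258 at H3K4me3 of at least 20 and 2214 at 5. The share of bivalent genes with RNA in OCR was 86.4% at 0.5 CPM, 18.5% at 5 CPM and 15.8% at 1 RPKM, and within 200 bases 2 bivalent TSSs had a PU.1 peak in both OCR libraries. Where no construction is named, the cause was not tested.

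Same-numbered libraries showed at most weak joint deviations (correlations of -0.142 to 0.145), and so few pairs cannot decide whether the numbers pair the libraries. With the replicate number as a block, 1 bivalent gene was called for YCR versus YAL (0.155%, against 0.0375% of all genes). For OCRRF versus OCR, 132 (111 higher) were called (12.0%, against 10.6% of all genes), and 3 ATAC-seq peaks, against 764 of all 123372 peaks. OCR replicates 3 and 4 have no OCRRF library of the same number, so that block fit compares only the remaining OCR libraries with OCRRF. These results are limited by the 2 refed old RNA libraries, the 2 replicates per histone mark and background reads at low levels, among others.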
